A study of Mus musculus with 412 samples.

Results

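In lumbosacral (LS) dorsal root ganglia, 73 colonic sensory neurons with Gfra3 were compared with 62 that had Piezo2 and lacked Gfra3, out of 325 mouse neurons in all. The members were chosen by their own measured values. The deposited log2 values of a neuron were taken off the log scale and rescaled to sum to 1000000, and these rescaled values are called TPM here, after the transcript measure of that scale. An LS neuron with at least 9500 genes above 0 was called a Gfra3 neuron when Gfra3 was at 10 TPM or more. It was called a Piezo2 neuron when Gfra3 was under 10 TPM and Piezo2 was at 10 TPM or more. Of 158 LS neurons in the table, 140 had enough genes, and 5 of these were in neither group.

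All neurons came from C57BL/6J mice, with no allele or agent that differed between the groups, and neither age nor sex is named in the labels used here. Fast Blue, a tracer carried back from nerve endings to the soma, was injected into the colon wall, and L5 to S2 ganglia were taken as LS 3 to 10 days later. After dissociation, traced neurons were picked singly from culture and sequenced by Smart-seq2, a full-length method with no molecular identifiers. Thoracolumbar (TL) neurons, from T10 to L1 ganglia, were split by the same thresholds into 85 Gfra3 and 49 Piezo2 neurons and are given side by side only. No mouse is named for any neuron, so LS is 1 sample, neurons are not replicates, and no p-value or standard error was computed. Library plates 2 to 6 served as strata and held 7 to 20 Gfra3 neurons and 9 to 17 Piezo2 neurons each.

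Gfra3 encodes the receptor for artemin, a ligand of the GDNF family that signals through the shared kinase Ret, and in sensory ganglia it is known from peptidergic nociceptors. Piezo2 encodes a channel opened by membrane stretch, which underlies light touch and proprioception and is known from low-threshold mechanosensory afferents. LS afferents reach the colon through the pelvic nerve and carry both noxious signals and the sense of filling.

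Both groups had the markers of sensory neurons. Isl1, Pou4f1, Slc17a6, Tubb3, Snap25 and Prph were at 10 TPM or more in every neuron of both groups. Avil reached 10 TPM in 56.2% of Gfra3 neurons and 100% of Piezo2 neurons, with medians of 57.9 and 401 TPM, and Rbfox3 in 58.9% and 87.1%. The libraries were of similar depth. The recovered reads per neuron ranged from 416007 to 9097865 in Gfra3 neurons (median 3355628) and from 509832 to 12058968 in Piezo2 neurons (median 3282549). The median number of genes above 0 was 13999 and 14460, and mitochondrial genes took a median of 2.38% and 3.22% of reads. Beside shares of neurons, the range in parentheses is the exact 95% interval of Clopper and Pearson. It covers counting error only and takes neurons as independent, although their mice are not named.

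Gfra3 and Piezo2 themselves are described and not compared, because they chose the members. Gfra3 was at 36.4, 1427 and 2380.3 TPM (lowest, median and highest) in Gfra3 neurons, and at 0 in 58 of 62 Piezo2 neurons, the highest of which had 4.31 TPM. Piezo2 was at 13.2, 55.8 and 241 TPM in Piezo2 neurons. In Gfra3 neurons it was at 0 in 45 of 73 and at 16.4 to 28.4 TPM in the 5 neurons that had both genes past 10 TPM. Just inside the thresholds lay neurons with 36.4 and 166 TPM of Gfra3 and with 13.2 and 19.6 TPM of Piezo2. Just outside lay neurons with 4.31 and 1.91 TPM of Gfra3, and with 9.60 and 7.61 TPM of Piezo2. No LS neuron with enough genes thus fell between 4.31 and 36.4 TPM of Gfra3, whereas the values of Piezo2 ran across its threshold.

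**Figure D1:**
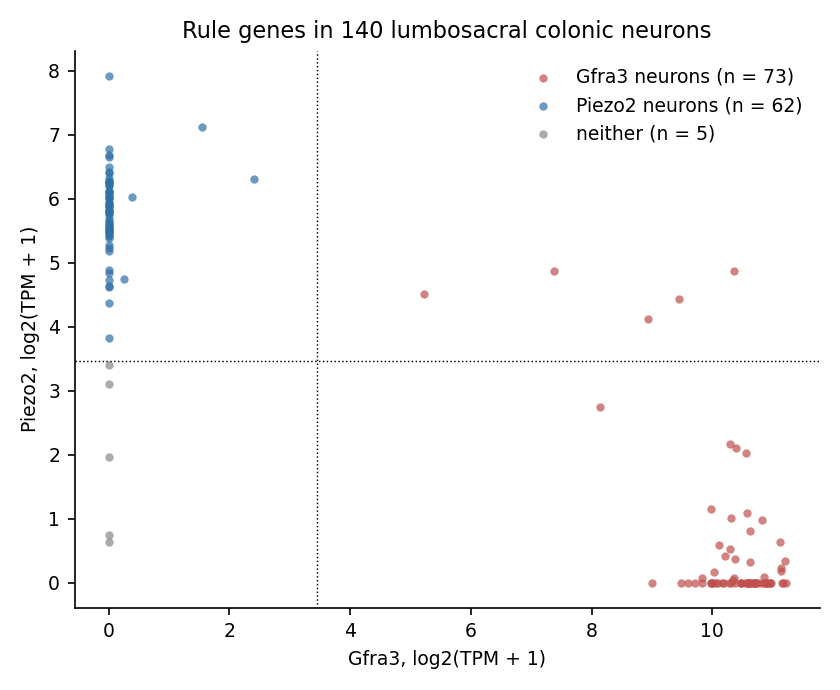
The 140 LS neurons by Gfra3 (x axis) and Piezo2 (y axis), both as log2(TPM + 1), 1 point per neuron, with dotted lines at 10 TPM. The 73 Gfra3 neurons lie to the right and all but 5 of them lie below the horizontal line, while the 62 Piezo2 neurons stand at the upper left and 5 neurons in neither group at the lower left.

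A gene was considered when its mean was at least 10 TPM in either group, which 7943 genes met. It was called higher in a group when the log2 ratio of mean TPM, with 1 TPM added to each mean, was at least 2 (4-fold), and when the group had the higher mean in each of plates 2 to 6. By this rule 88 genes (1.11% of those considered) were higher in Gfra3 neurons and 150 (1.89%) in Piezo2 neurons, the rule genes included. These 2 shares are the background for the counts of called members in every gene list below. A count near them is no result about a list. The median log2 ratio of all genes considered, Gfra3 over Piezo2 neurons, was -0.02. On the deposited scale, without the rescaling to TPM, that median was 0.19 and the calls were split into 154 and 150. Below, a positive log2 ratio means a higher mean in Gfra3 neurons. As a size of separation with no test, the AUROC gives the share of neuron pairs in which the Gfra3 neuron had the higher value. Tied pairs were split evenly between the groups. Without the rule genes, the AUROC was at least 0.95 for 31 genes and at most 0.05 for 18, and 0 genes had groups that did not overlap.

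**Figure D2:**
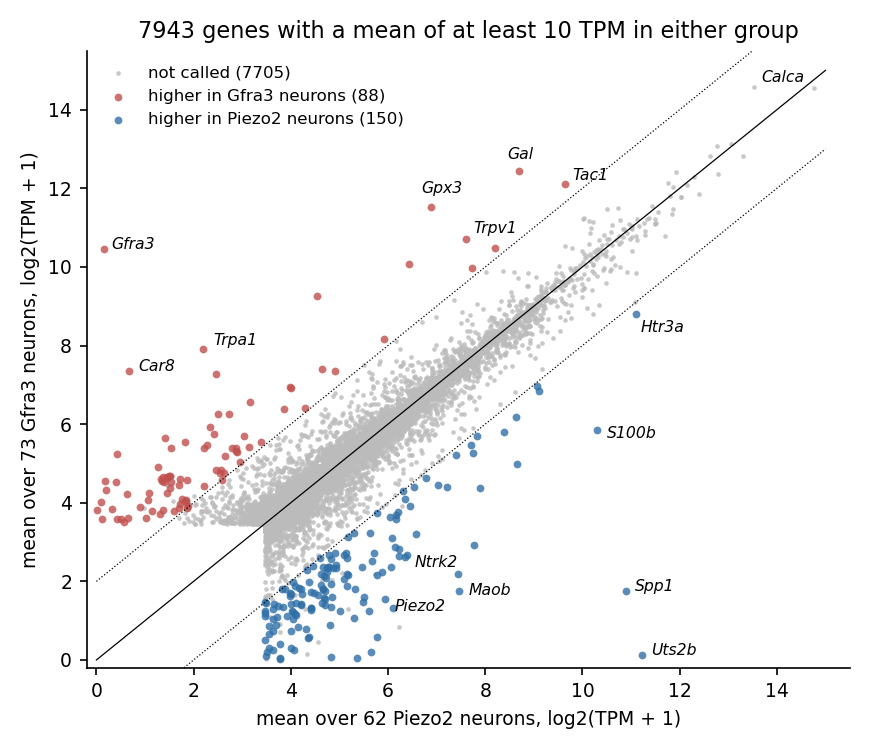
Mean level of each of 7943 genes in 62 Piezo2 neurons (x axis) and 73 Gfra3 neurons (y axis), as log2(TPM + 1), with the solid line at equal means and dotted lines at a log2 ratio of 2 in each direction. Coloured points are the 88 and 150 genes called, and Uts2b and Spp1 stand farthest from the line on the Piezo2 side, while Gfra3, Car8 and Trpa1 do so on the other side.

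Of the genes higher in Gfra3 neurons, 9 of the 10 with the highest ratios were Car8, Trpa1, Frzb, Tmem255a, Gpx3, Mymk, Adra2a, Irx6 and Sstr2. Car8 (chr4:8143362-8239041, minus strand, GRCm38), whose protein binds the inositol trisphosphate receptor, was at 0, 158 and 342 TPM in Gfra3 neurons and 0, 0 and 20.4 TPM in Piezo2 neurons. All but 3 Gfra3 neurons had it at 10 TPM or more, against 1 Piezo2 neuron, for a log2 ratio of 6.69 (plates 5.11 to 7.56). Trpa1 (chr1:14872648-14918862, minus strand), the irritant receptor channel, was more uneven, at 0, 90.2 and 1372 TPM in Gfra3 neurons and 0, 0 and 128 TPM in Piezo2 neurons. It passed 10 TPM in 53 of 73 Gfra3 neurons (72.6%, 60.9% to 82.4%) and 3 of 62 Piezo2 neurons (4.84%, 1.01% to 13.5%). Gfra3 neurons without it thus overlapped with Piezo2 neurons, and the log2 ratio was 5.72 (plates 5.17 to 7.44).

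Tmem255a was at 50.2 TPM or more in every Gfra3 neuron (median 605), while Piezo2 neurons had a median of 5.32 and a highest value of 397 TPM. Gpx3, a secreted glutathione peroxidase, had the highest mean of these 9 genes, at 0, 2497 and 7398 TPM in Gfra3 and 0, 45.9 and 847 TPM in Piezo2 neurons. Frzb, a secreted antagonist of Wnt signalling, was at 2.21, 120.0 and 548 TPM against 0, 0 and 55.2 TPM. The groups overlapped in each of these 3 genes through a few neurons, with AUROCs of 0.993, 0.981 and 0.988 and log2 ratios of 4.73, 4.63 and 4.82. The remaining leading genes were lower in level. Mymk, known for the fusion of muscle precursor cells, was at 0, 26.2 and 315 TPM in Gfra3 neurons and at most 21.3 TPM in Piezo2 neurons (log2 ratio 4.22).

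Of the genes higher in Piezo2 neurons, the highest ratios were those of Uts2b, Spp1, Maob, Blnk, Hpse, Ust, Tns1, Ifitm2, F2r and Gng13. Uts2b (chr16:27353322-27370239, minus strand), the precursor of a peptide related to urotensin, was at 0, 933 and 8274 TPM in Piezo2 neurons and at most 5.50 TPM in Gfra3 neurons. It passed 10 TPM in 40 of 62 Piezo2 neurons (64.5%, 51.3% to 76.3%) and 0 of 73 Gfra3 neurons (0%, 0% to 4.93%). Piezo2 neurons were thus split, with 40 past 10 TPM and 22 under 10 TPM. The log2 ratio was -11.09, with plate values of -11.32 to -10.80, and since only 11 reads over all Gfra3 neurons stood against 170460 in Piezo2 neurons, its size depends on the 1 TPM added. Spp1 (chr5:104435118-104441050, plus strand), which encodes osteopontin, was also uneven, at 0, 79.2 and 12933 TPM in Piezo2 and 0, 0 and 43.7 TPM in Gfra3 neurons, with 36 of 62 Piezo2 neurons (58.1%, 44.8% to 70.5%) past 10 TPM (log2 ratio -9.13).

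Tns1 and Ust were spread over nearly all Piezo2 neurons. Tns1, a protein of focal adhesions, was at 0, 56.6 and 102 TPM in Piezo2 and 0, 0 and 17.5 TPM in Gfra3 neurons (log2 ratio -5.20, AUROC 0.0292). Ust, a sulfotransferase that acts on dermatan and chondroitin sulfate, was at 0, 152 and 589.6 TPM against 0, 0.117 and 32.4 TPM (log2 ratio -5.26). Each passed 10 TPM in 57 of 62 Piezo2 neurons (91.9%, 82.2% to 97.3%). Maob, the monoamine oxidase that prefers phenylethylamine, was at 0, 84.5 and 751 TPM in Piezo2 neurons and 0, 0 and 40.4 TPM in Gfra3 neurons (log2 ratio -5.70). Hpse, the enzyme that cleaves heparan sulfate, was at 0, 28.5 and 154 TPM in Piezo2 neurons and at most 1.44 TPM in Gfra3 neurons (log2 ratio -5.32). The other 4 genes had log2 ratios of -5.46 (Blnk, a B cell adaptor), -4.83 (Ifitm2, induced by interferon), -4.78 (F2r, the thrombin receptor PAR1) and -4.76 (Gng13, a G protein gamma subunit). Gng13 had 3 reads over all Gfra3 neurons and 1986 over all Piezo2 neurons, a ratio of read shares of 730.4 with an exact counting interval of 249.6 to 3545. That interval takes pooled reads as independent, although they have no molecular identifiers and came from 2 Gfra3 and 45 Piezo2 neurons. It does not cover the spread between neurons or mice. Blnk passed 10 TPM in 25 of 62 Piezo2 neurons (40.3%, 28.1% to 53.6%), the smallest share of the 10.

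**Figure D3:**
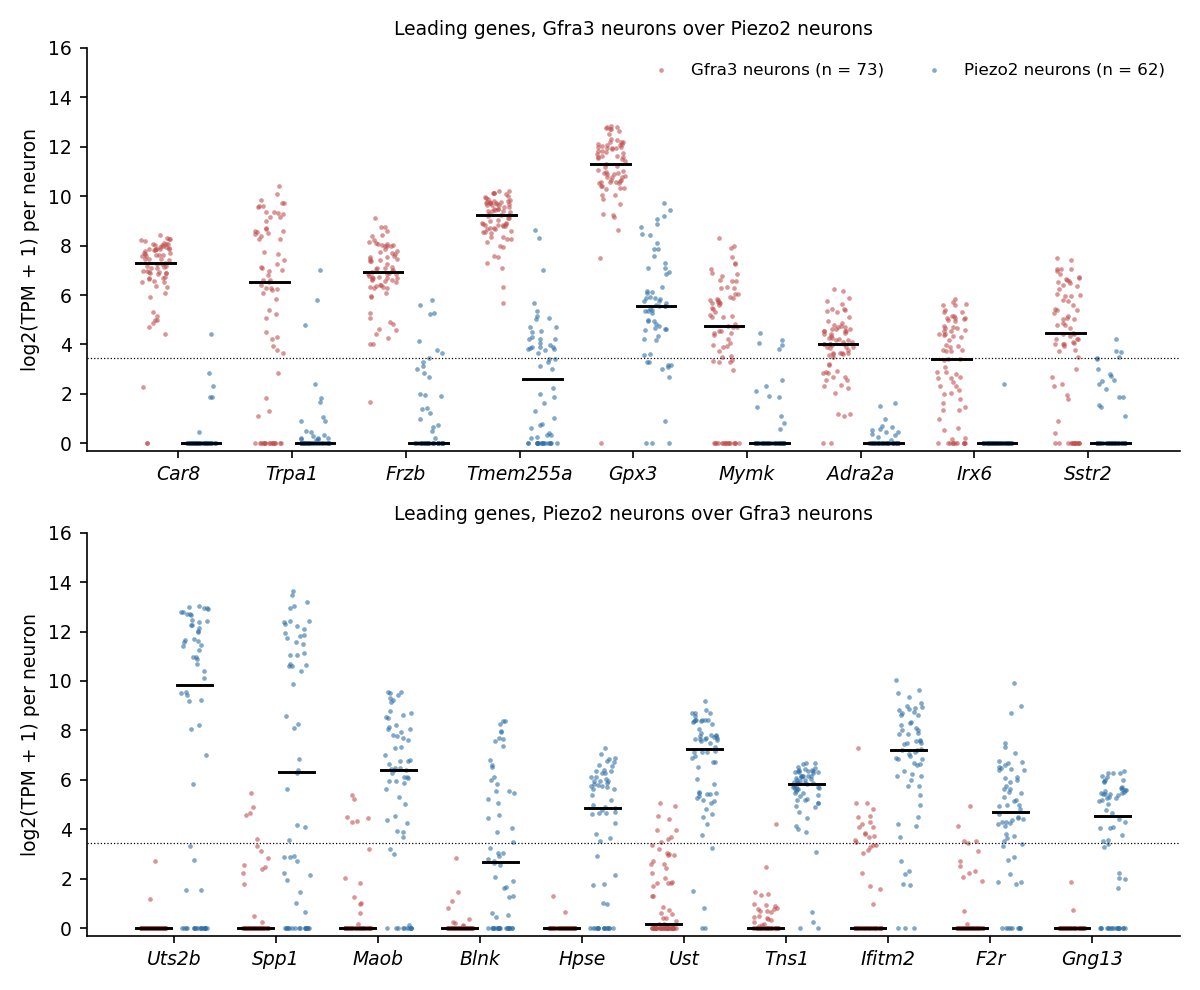
Each point is 1 neuron, as log2(TPM + 1) on the y axis, for 9 leading genes on the Gfra3 side and 10 on the Piezo2 side. Black bars are medians over 73 Gfra3 or 62 Piezo2 neurons and the dotted line is at 10 TPM. Uts2b and Spp1 form an upper and a lower band among Piezo2 neurons, whereas Tns1 and Tmem255a form 1 band each in the group where they are high.

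Within each group the leading genes were present together to different extents. A Gfra3 neuron had 2 to 9 of its 9 leading genes at 10 TPM or more (median 7), and 69 of 73 had at least 5. A Piezo2 neuron had 1 to 10 of its own 10 (median 8), and 46 of 62 had at least 5. In the other direction, Gfra3 neurons had at most 3 of the Piezo2 genes and 44 had none, while Piezo2 neurons had at most 5 of the Gfra3 genes and 7 had none. Among Piezo2 neurons, Uts2b and Hpse were found together in 39 of 62 and both missing in 20, so that 3 had only 1 of the pair. All 25 neurons with Blnk had Uts2b, Hpse, Maob, Tns1, Ust and Ifitm2. Uts2b and Spp1 were together in 32, while 8 had Uts2b alone and 4 had Spp1 alone. Among Gfra3 neurons, Trpa1 and Sstr2 were together in 40 of 73, with 13 that had Trpa1 alone, 12 that had Sstr2 alone and 8 with neither. These counts were read from the same neurons that named the genes and are given as a description.

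Receptors for GDNF ligands and neurotrophins, apart from Gfra3, were called on the Piezo2 side. Of 9 listed, 6 were considered, of which 0 were higher in Gfra3 and 2 in Piezo2 neurons, with a median log2 ratio of 0.11 against -0.02 for all genes considered. Gfra1, the co-receptor of GDNF, was at 2.05, 47.6 and 156 TPM in Piezo2 neurons and 0, 0 and 74.8 TPM in Gfra3 neurons. Only 12 Gfra3 neurons and all but 2 Piezo2 neurons had it at 10 TPM or more (log2 ratio -2.98, plates -4.60 to -1.74). Ntrk2, the BDNF receptor TrkB, was at 0, 81.3 and 294 TPM in Piezo2 and 0, 1.51 and 34.7 TPM in Gfra3 neurons (log2 ratio -3.74). Both genes thus overlapped little between the groups, with AUROCs of 0.0444 and 0.0499.

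Ret, the signalling kinase shared by all GDNF family receptors, was at 8.57, 277 and 533 TPM in Gfra3 neurons and 0, 65.4 and 448 TPM in Piezo2 neurons. Its log2 ratio of 1.96 missed the threshold of 2, although it was positive in each of 5 plates (1.47 to 2.77). Ngfr, the neurotrophin receptor p75, was high in both groups, with medians of 1591 TPM in Gfra3 and 1907 TPM in Piezo2 neurons (log2 ratio -0.16). Gfra4, the persephin receptor, had medians of 77.1 and 53.7 TPM (log2 ratio 0.49). Gfra2, Ntrk3 and Sort1 stayed under a mean of 10 TPM in both groups, with 10 TPM or more of Gfra2 in 3 Gfra3 and 3 Piezo2 neurons, of Ntrk3 in 0 and 3, and of Sort1 in 8 and 22.

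Of 8 neurotrophic ligands, 2 were considered, and Nrtn was higher in Piezo2 neurons. Nrtn encodes neurturin, the ligand of Gfra2, and was at 0, 11.9 and 108 TPM in Piezo2 and 0, 0 and 15.1 TPM in Gfra3 neurons (log2 ratio -3.79). It was past 10 TPM in 32 of 62 Piezo2 neurons (51.6%, 38.6% to 64.5%). Bdnf was in every Piezo2 neuron at 15.1 TPM or more and in 57 of 73 Gfra3 neurons (78.1%, 66.9% to 86.9%), with medians of 60.1 and 27.7 TPM. Its log2 ratio was -0.48. Artn, the ligand of Gfra3, was under a mean of 10 TPM in both groups.

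A few neuropeptide precursors were abundant in both groups. Of 27 listed, 14 had a median of 0 and 13 were considered, 2 were higher in Gfra3 and 2 in Piezo2 neurons, and the median log2 ratio was 0.43. Gal, the galanin precursor, was at 0, 5137 and 21130.0 TPM in Gfra3 neurons and 0, 75.9 and 5348 TPM in Piezo2 neurons (log2 ratio 3.74, plates 2.97 to 5.01). Tac1, the substance P precursor, was at 0, 4340.0 and 8312 TPM against 0, 98.9 and 3730.1 TPM (log2 ratio 2.46). Nearly all Gfra3 neurons had both peptides, and Piezo2 neurons ranged from 0 up to values within the Gfra3 range. Calca, the CGRP precursor, was at 10739.8, 23039 and 46644 TPM in Gfra3 and 0, 11576 and 34826 TPM in Piezo2 neurons, and passed 10 TPM in all but 1 neuron. Its log2 ratio of 1.04 was not called. Besides Uts2b, Piezo2 neurons had more Adm, the adrenomedullin precursor, at 0, 87.3 and 395 TPM against 0, 14.3 and 172 TPM (log2 ratio -2.15), a call that was lost without plate 5, where the log2 ratio lay just inside the limit. Cartpt, which encodes CART peptides, had medians of 1976 and 2921 TPM in Gfra3 and Piezo2 neurons (log2 ratio -0.50).

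On a list of 16 peptidergic nociceptor genes, 14 were considered, 4 were higher in Gfra3 neurons and 0 in Piezo2 neurons, and the median log2 ratio was 0.96. The 4 were Gal, Tac1, Trpv1 and Cd24a. On a list of 21 genes of myelinated afferents, 13 were considered, 0 were higher in Gfra3 neurons and 6 in Piezo2 neurons, and the median was -2.13. These 6 were Spp1, S100b, Ntrk2, Thy1, Ldhb and Nefh. Spp1, Ldhb and Nefh are also subtype markers that the study chose on these neurons, and the study named Ntrk2 for a lumbosacral subtype. It also described Tac1 and Trpv1 in its peptidergic subtypes. The counts on both lists are thus not fully independent of what the study found in these neurons. S100b, a calcium-binding protein of large neurons and glia, was at 48.0, 1324 and 2736 TPM in Piezo2 neurons and 0, 10.8 and 2154 TPM in Gfra3 neurons (log2 ratio -4.45, plates -6.55 to -1.81). All Piezo2 neurons and 39 of 73 Gfra3 neurons (53.4%, 41.4% to 65.2%) passed 10 TPM, and the AUROC was 0.0179. Ldhb, lactate dehydrogenase B, was above 0 in every neuron, at 66.3, 461 and 2042 TPM in Piezo2 and 10.1, 111 and 401 TPM in Gfra3 neurons (log2 ratio -2.25). Nefh, the neurofilament heavy chain, had means of 226 and 51.0 TPM (log2 ratio -2.13). Nefl and Nefm, the light and medium chains, were lower in Gfra3 neurons in each of 5 plates but not called, with log2 ratios of -1.27 and -0.99. The paper holds it unlikely that neurofilament markers in visceral afferents go with marked myelination. The name of the list is thus no statement about myelin in these neurons.

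Among 16 TRP channels, 7 were considered, 2 were higher in Gfra3 neurons and 0 in Piezo2 neurons, with a median log2 ratio of 0.71. Trpv1, the capsaicin receptor, was at 3.44, 1668 and 4109.5 TPM in Gfra3 neurons and 0, 5.14 and 1440.3 TPM in Piezo2 neurons (log2 ratio 3.11, plates 1.55 to 4.37). It passed 10 TPM in 72 of 73 Gfra3 neurons (98.6%, 92.6% to 100.0%) and in 27 of 62 Piezo2 neurons (43.5%, 31.0% to 56.7%). Trpa1, described above, was the other. Trpv2, a channel of large sensory neurons and other cells, was in every neuron, with medians of 121 and 74.9 TPM. Mcoln1, a lysosomal channel, had medians of 82.5 and 74.9 TPM.

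Of 17 mechanosensitive and acid-sensing channels other than Piezo2, 12 were considered, 1 was higher in Gfra3 and 1 in Piezo2 neurons, and the median log2 ratio was 0.02. Kcnk2, the stretch-sensitive potassium channel TREK-1, was at 2.26, 83.1 and 239 TPM in Gfra3 neurons and 0, 11.9 and 112 TPM in Piezo2 neurons (log2 ratio 2.13), and came to 1.98 without the neurons highest in glial transcripts, as described below. Tmc6, a member of the family that holds the hair cell channels, was at 0, 16.4 and 81.4 TPM in Piezo2 and 0, 0 and 38.7 TPM in Gfra3 neurons (log2 ratio -3.09). Lhfpl5, a partner of the hair cell channel, was of similar level in both, with medians of 138 and 140.5 TPM. Tmem63c, of a family of osmosensitive channels, had medians of 76.7 and 64.5 TPM. Piezo1 stayed under a mean of 10 TPM in both groups.

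No subunit of voltage-gated sodium or calcium channels was called in LS neurons. Over all genes considered, 1.11% were called higher in Gfra3 and 1.89% in Piezo2 neurons. With so few members, 0 calls is near those shares and is no result about these channels. In TL neurons, 3 of 10 sodium channel subunits considered were higher in Piezo2 neurons, and 1 of 7 calcium channel subunits in Gfra3 neurons. In LS, of 14 sodium channel subunits 8 were considered (median log2 ratio -0.38), and of 19 calcium channel subunits 10 (median 0.32). Scn4b, a beta subunit, had a log2 ratio of -2.44 but not the same direction in every plate (-4.50 to 0.91). Scn10a, the nociceptor channel Nav1.8, was at 1.74, 141 and 645 TPM in Gfra3 and 1.26, 147 and 1136 TPM in Piezo2 neurons, with nearly equal medians (log2 ratio -0.43). Scn3b, a beta subunit, had medians of 96.4 and 89.7 TPM. Cacnb3, a beta subunit of calcium channels, was at 208 and 143 TPM (median), and Cacna2d1, the gabapentin-binding subunit, at 56.0 and 80.9 TPM.

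Potassium channels were called in both directions. Of 55 potassium and HCN channel genes, 29 were considered, 2 were higher in Gfra3 and 5 in Piezo2 neurons, and the median log2 ratio was -0.50. Kcnk3, the acid-sensitive leak channel TASK-1, was at 0, 176 and 347 TPM in Gfra3 and 0, 11.4 and 204 TPM in Piezo2 neurons (log2 ratio 2.76). Kcnmb2, a beta subunit of BK channels, was at 0, 40.5 and 119 TPM against 0, 1.18 and 21.7 TPM (log2 ratio 3.20). Both were at 10 TPM or more in at least 70 of 73 Gfra3 neurons. The 5 on the other side were Kcnn2, Kcnip2, Kcnab1, Kcnh2 and Kcnk1. Kcnn2, the small-conductance channel SK2, was at 1.96, 29.0 and 53.7 TPM in Piezo2 and 0, 1.71 and 15.46 TPM in Gfra3 neurons (log2 ratio -2.89). Kcnab1, a beta subunit of Shaker-type channels, was at 0.0623, 62.3 and 252 TPM against 0, 7.13 and 59.2 TPM (log2 ratio -2.46). Kcnip2, a partner of Kv4 channels, was past 10 TPM in only 5 of 62 Piezo2 neurons (8.06%, 2.67% to 17.8%), and its log2 ratio of -2.60 came to -0.78 without plate 4. Kcnab2 and Kcns3, further subunits of these channels, were not called, with log2 ratios of 0.13 and 1.01.

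**Figure D4:**
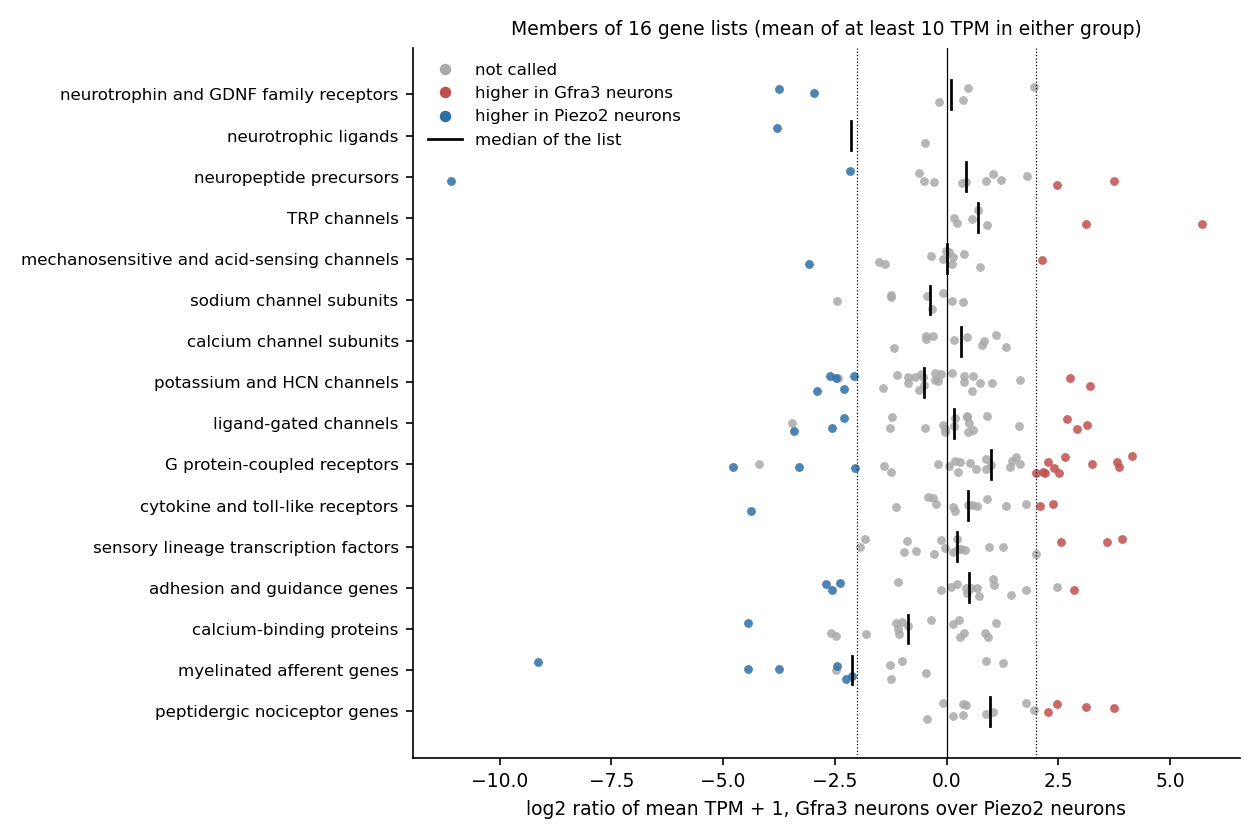
Log2 ratio of mean TPM + 1, Gfra3 over Piezo2 neurons (x axis), for each considered member of 16 gene lists, 1 point per gene, with the list median as a black bar and dotted lines at 2 and -2. TRP channels and peptidergic nociceptor genes were called on the Gfra3 side only and myelinated afferent genes on the Piezo2 side only, whereas potassium channels, ligand-gated channels and G protein-coupled receptors were called on both.

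Ligand-gated channels were also called both ways. Of 47 for 5-HT, ATP, acetylcholine, glutamate and GABA or glycine, 22 were considered, 3 were higher in Gfra3 and 3 in Piezo2 neurons, and the median log2 ratio was 0.17. Htr3a and Htr3b, the subunits of the 5-HT3 receptor, were both on the Piezo2 side. Htr3a was at 0, 2203 and 4360.2 TPM in Piezo2 neurons and 0, 53.5 and 7209 TPM in Gfra3 neurons, with the highest Gfra3 neuron above every Piezo2 neuron (log2 ratio -2.30). Without plate 4 it came to -1.98 and was no longer called. Htr3b was at 0, 118 and 323 TPM against 0, 0.999 and 487 TPM (log2 ratio -2.57). Grik1, a kainate receptor subunit, was at 0, 59.2 and 1017 TPM in Piezo2 and 0, 0.703 and 54.0 TPM in Gfra3 neurons (log2 ratio -3.41).

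On the Gfra3 side stood Gabrg3, Chrnb3 and Gria1. Chrnb3, a nicotinic receptor subunit, was at 0, 109 and 388 TPM in Gfra3 and 0, 0.418 and 219 TPM in Piezo2 neurons (log2 ratio 2.92). Gria1, an AMPA receptor subunit, was at 0, 22.8 and 60.5 TPM against 0, 0.428 and 19.0 TPM (log2 ratio 2.71). Gabrg3, a GABA-A receptor subunit, had a mean of 10.9 TPM in Gfra3 neurons, close to the limit of 10. It passed 10 TPM in 38 of 73 Gfra3 neurons (52.1%, 40.0% to 63.9%) and in 0 of 62 Piezo2 neurons (0%, 0% to 5.78%) (log2 ratio 3.15). Its log2 ratio was 3.02 when LS neurons with fewer genes were included and 2.98 when the neurons highest in immune transcripts were left out, although it was no longer called in either. The nicotinic subunits Chrna3 and Chrnb4 were not called, with medians of 224 and 782 TPM and of 339 and 363 TPM in Gfra3 and Piezo2 neurons.

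The G protein-coupled receptors, the longest list, held the most calls of any list on the Gfra3 side. Of 81 listed, 31 were considered, 11 were higher in Gfra3 and 3 in Piezo2 neurons, and the median log2 ratio was 0.99. Over all genes considered, the shares called were 1.11% and 1.89%. The 11 were Adra2a, Sstr2, Npffr2, Casr, Gpr35, Crhr2, Grpr, Bdkrb2, Oprl1, Oprm1 and Npy2r, with means of 12.1 (Grpr) to 50.7 (Gpr35) TPM in Gfra3 neurons. Adra2a, an adrenergic receptor coupled to Gi, was at 0, 15.2 and 75.4 TPM in Gfra3 neurons and at most 2.10 TPM in Piezo2 neurons (log2 ratio 4.14). Sstr2, a somatostatin receptor, was at 0, 20.9 and 179.6 TPM in Gfra3 and 0, 0 and 17.8 TPM in Piezo2 neurons (log2 ratio 3.85). Npffr2, the receptor of neuropeptide FF, was at 0, 9.21 and 47.1 TPM in Gfra3 neurons and had 1 read over all Piezo2 neurons. With 2143 reads over Gfra3 neurons, the ratio of read shares was 1942, with an exact counting interval of 348.2 to 76756. As for Gng13, that interval takes pooled reads as independent and does not cover the spread between neurons or mice. The mu opioid receptor Oprm1 had means of 45.9 and 9.44 TPM (log2 ratio 2.17) and the nociceptin receptor Oprl1 of 25.9 and 4.83 TPM (log2 ratio 2.20).

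The 3 receptors on the Piezo2 side were F2r, Htr1d and P2ry2. F2r was at 0, 25.1 and 967 TPM in Piezo2 neurons and 0, 0 and 29.4 TPM in Gfra3 neurons. Htr1d, a 5-HT receptor coupled to Gi, was past 10 TPM in 19 of 62 Piezo2 neurons (30.6%, 19.6% to 43.7%) and 2 Gfra3 neurons (log2 ratio -3.31). P2ry2, a receptor of ATP and UTP, had a mean of 10.3 TPM, just past the limit of 10, and was no longer called without plate 2, plate 4 or plate 5, where its log2 ratio lay between -1.93 and -1.89. F2rl2, the protease-activated receptor PAR3, and Npy1r, a neuropeptide Y receptor, were not called, with medians of 297 and 138 TPM and of 206 and 104 TPM.

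Cytokine receptors were called in 3 of 15 considered from 27 listed, with 2 higher in Gfra3 and 1 in Piezo2 neurons and a median log2 ratio of 0.48. Tnfrsf1a, the TNF receptor TNFR1, was at 0, 49.8 and 152 TPM in Piezo2 neurons and 0, 0 and 34.2 TPM in Gfra3 neurons, with 49 of 62 Piezo2 neurons (79.0%, 66.8% to 88.3%) and 3 of 73 Gfra3 neurons (4.11%, 0.856% to 11.5%) past 10 TPM (log2 ratio -4.37). Il13ra1, a receptor chain for IL-4 and IL-13, was at 0, 33.0 and 172 TPM in Gfra3 and 0, 3.57 and 48.9 TPM in Piezo2 neurons (log2 ratio 2.38). Osmr, the oncostatin M receptor, was close to the limit at 2.10, and came to 1.89 without plate 5 and 1.73 without plate 6. Lifr, the receptor of leukaemia inhibitory factor, passed 10 TPM in every neuron, and Kit, the receptor of stem cell factor, in all but 1 Gfra3 neuron and 32 of 62 Piezo2 neurons (51.6%, 38.6% to 64.5%). Their log2 ratios of 0.68 and 1.78 were not called.

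Of 47 transcription factors of the sensory lineage, 19 were considered, 3 were higher in Gfra3 neurons and 0 in Piezo2 neurons, with a median log2 ratio of 0.24. Irx6, a homeobox factor, was at 0, 9.72 and 55.6 TPM in Gfra3 neurons and at most 4.22 TPM in Piezo2 neurons (log2 ratio 3.92). Hmx1, another homeobox factor, was at 0, 14.5 and 77.1 TPM against 0, 0 and 14.1 TPM (log2 ratio 3.58), and Lmo1, a LIM-only cofactor, at 0, 24.0 and 172 TPM against 0, 1.33 and 79.0 TPM (log2 ratio 2.56). Each of the 3 was at 0 in some Gfra3 neurons. Ldb2, a LIM domain cofactor, and Cbfb, the partner of Runx factors, were high in both groups, with log2 ratios of 0.41 and -0.69. Rxrg, a retinoid receptor, was just short of a call at 1.99. Runx1, Runx3, Maf and Mafa were under a mean of 10 TPM in both.

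Of 56 adhesion and guidance genes, 18 were considered, 1 was higher in Gfra3 and 3 in Piezo2 neurons, and the median log2 ratio was 0.51. Lrrtm3, a synaptic adhesion protein, was at 1.14, 16.6 and 72.6 TPM in Gfra3 and 0, 0 and 32.5 TPM in Piezo2 neurons (log2 ratio 2.86). The contactins Cntn5 and Cntn1 were at 0, 32.0 and 95.3 TPM and at 0, 42.6 and 146 TPM in Piezo2 neurons, with log2 ratios of -2.57 and -2.38. Cntn1 reached 278 TPM in a Gfra3 neuron, had plate values of -4.83 to -0.08, and was no longer called with rule thresholds of 5 TPM or without the neurons highest in glial transcripts, where its log2 ratio was -2.34 and -2.29. Sema3d, a secreted semaphorin, had a mean of 10.7 TPM there (log2 ratio -2.69) and was no longer called without plate 6, with a log2 ratio of -2.65. Fstl1, a secreted follistatin-like protein, was above 0 in every neuron, with medians of 2353 and 975 TPM (log2 ratio 1.03). Sema6d had medians of 51.8 and 30.1 TPM.

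Of 24 calcium-binding proteins, 17 were considered, and S100b was the 1 gene called (median log2 ratio -0.87). S100a10, an annexin partner, was high in every neuron of both groups (medians 1828 and 1379.6 TPM), and S100a6 had medians of 282 and 1085 TPM. Of 13 catecholamine genes, 6 were considered and Maob was the 1 gene called (median -0.54). Th, the rate-limiting enzyme of catecholamine synthesis, was at 0, 756 and 3435 TPM in Gfra3 and 0, 208 and 2771 TPM in Piezo2 neurons. Its log2 ratio was 1.53, with plates on both sides of 0 (-0.42 to 2.10). Qdpr, which recycles tetrahydrobiopterin, had medians of 314 and 512 TPM. Ddc and Dbh, which carry the pathway on from Th, were under a mean of 10 TPM in both groups.

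The study's own subtype markers were chosen on these neurons and are not independent of them. Of 18, 13 were considered, 1 was higher in Gfra3 neurons (Trpa1) and 4 in Piezo2 neurons (Spp1, Hpse, Ldhb and Nefh), and the median log2 ratio was -1.51. Ntm and Mrgprd had log2 ratios of 2.47 and -4.18 but not the same direction in every plate, the latter from 1 Piezo2 neuron past 10 TPM. P2rx3, an ATP-gated channel, had medians of 25.8 and 72.3 TPM in Gfra3 and Piezo2 neurons (log2 ratio -1.27).

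Axon injury genes can be induced when axons are cut in dissociation. Of 11, all were considered, and Ecel1, an endopeptidase induced by nerve injury, was the 1 gene called (median log2 ratio 0.54). Ecel1 was past 10 TPM in 11 of 73 Gfra3 neurons (15.1%, 7.77% to 25.4%) and in 0 Piezo2 neurons (log2 ratio 3.47), and it was no longer called without plate 3 or plate 6, where the log2 ratio was 3.30 and 3.14. Its median was 0 TPM in both groups. Atf3, an injury-induced transcription factor, had medians of 378 and 249.6 TPM, and Gap43, a growth cone protein, of 1185 and 1219 TPM. Of 10 immediate early genes, 8 were considered and 0 were called (median -0.66). Fos had medians of 307 and 386 TPM, and Junb of 158 and 105 TPM.

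Transcripts of other cell types were found in both groups. No member of 14 satellite glia and Schwann cell markers was called (7 considered, median log2 ratio -0.62), and their summed level was 87.9 to 7896 TPM (median 1053) in Gfra3 neurons and 64.3 to 11000 TPM (median 1641) in Piezo2 neurons. Apoe, the leading one, had medians of 25.8 and 219 TPM, and Pmp22, a myelin protein, of 343 and 497 TPM, while 5 of the 14 had a median of 0 over both groups. When the tenth of neurons with the highest glial sum was left out, an alternative added after the data had been seen, 94 and 146 genes were called, with 81 and 139 of the 88 and 150 among them. S100b, a gene of glia as well, had a log2 ratio of -4.42 then.

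Immune transcripts had a higher median sum in Gfra3 neurons, but no gene was called. Of 15 macrophage and immune markers, 5 were considered and 0 were called (median log2 ratio 1.72), with a summed level of 2.12 to 1298 TPM (median 84.0) in Gfra3 and 0 to 451 TPM (median 38.5) in Piezo2 neurons, and 12 of 15 with a median of 0. C1qb had medians of 61.9 and 18.6 TPM and was higher in Gfra3 neurons in each of 5 plates (log2 ratio 1.44). The MHC class II gene H2-Eb1 had medians of 5.99 and 3.66 TPM (log2 ratio 1.72). H2-Aa and H2-Ab1, also of MHC class II, had log2 ratios of 2.88 and 3.14 but were lower in Gfra3 neurons in 1 plate. Of 11 endothelial and mural markers, 2 were considered and 0 were called (median -1.64, summed level 21.0 to 135.5 TPM in Gfra3 and 12.5 to 868 TPM in Piezo2 neurons, 8 of 11 with a median of 0). These were Egfl7 with medians of 55.8 and 35.7 TPM, and Rgs5, past 10 TPM in 2 Gfra3 and 8 Piezo2 neurons (log2 ratio -3.88, plates -6.08 to 0.58). Of 8 fibroblast markers, 7 had a median of 0, and Dcn alone was considered (log2 ratio 1.74, not called). It was at 0, 140.3 and 1866 TPM in Gfra3 and 0, 0 and 1694 TPM in Piezo2 neurons, higher in Gfra3 neurons in each of 5 plates (1.31 to 3.69). In TL neurons C1qb and Dcn were called higher in Gfra3 neurons, with log2 ratios of 3.85 and 3.27, and Rgs5 was called higher in Piezo2 neurons, with a log2 ratio of -4.61. The part of these cells in any value above was not tested. All 13 protein genes of the mitochondrial genome were considered and 0 were called (median -0.37), with mt-Co1 at medians of 7188 and 10438 TPM and mt-Nd1 at 4439 and 6498 TPM.

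The 5 Gfra3 neurons with Piezo2 at 10 TPM or more and the 5 neurons with neither gene are too few for a comparison. Those with both had 50.2 to 363 TPM of Tmem255a and 0 to 1958 TPM of Gpx3, and 0 of Uts2b. They also had up to 2154 TPM of S100b, 8.57 to 288 TPM of Ret and 70.8 to 3394 TPM of Htr3a. Those with neither had 3.59 to 1278 TPM of Trpv1, 82.7 to 1929 TPM of S100b, 376 to 5011 TPM of Htr3a and 0 to 229 TPM of Uts2b, with at most 0.677 TPM of Trpa1.

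The same thresholds in TL neurons gave 117 genes higher in Gfra3 neurons (1.49% of 7857 considered) and 93 higher in Piezo2 neurons (1.18%). The rule genes are called in both segments by construction and are left out of the following shares. Of the other 87 LS genes on the Gfra3 side, 47 were also called in TL, which is 54.0% of the LS and 40.5% of the TL calls. Of the other 149 on the Piezo2 side, 38 were, which is 25.5% of the LS and 41.3% of the TL calls. No gene was called in opposite directions. Each of the 9 leading genes of LS Gfra3 neurons was also called in TL, with TL log2 ratios of 2.37 (Tmem255a) to 5.72 (Mymk). Of the 10 leading genes of LS Piezo2 neurons, Ust, Tns1 and F2r were called in TL, with log2 ratios of -3.39, -2.96 and -2.45. The other 7 were not, and Uts2b, Spp1, Blnk, Hpse and Gng13 were under a mean of 10 TPM in both TL groups. Maob had TL means of 10.6 and 20.2 TPM and Ifitm2 of 58.3 and 76.3 TPM.

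Cartpt, Th, Chrna3, Chrnb4 and Npy1r, which were not called in LS, were higher in TL Gfra3 than TL Piezo2 neurons, with log2 ratios of 2.84, 3.00, 3.82, 3.65 and 3.37. In LS the Piezo2 neurons had means of 673 TPM of Chrna3 and 347 TPM of Chrnb4, and in TL of 16.7 and 17.6 TPM. Since each segment is 1 sample, the difference between LS and TL was not tested.

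**Figure D5:**
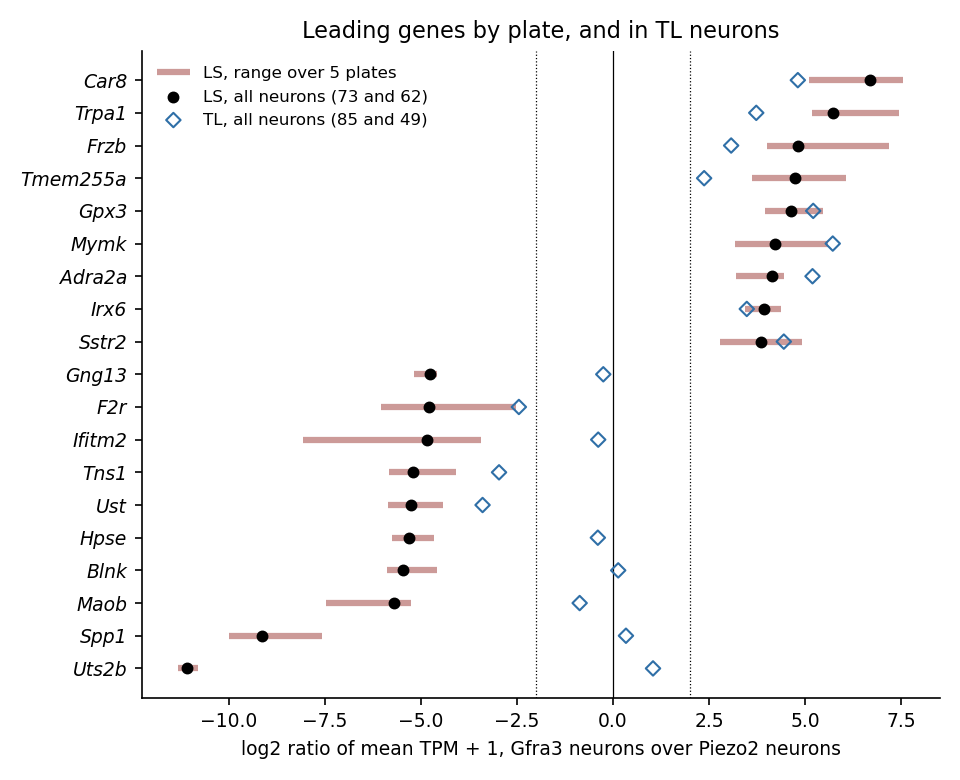
Log2 ratio of mean TPM + 1, Gfra3 over Piezo2 neurons (x axis), for the same 9 and 10 leading genes, with black points for all LS neurons, bars for the range over 5 LS plates, and open diamonds for TL neurons. Every plate bar lies on the side of its point, which the rule for a call requires. The diamonds of Uts2b, Spp1, Blnk, Hpse, Gng13, Ifitm2 and Maob lie between 2 and -2.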

How the data were processed

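Smart-seq2 libraries of single picked neurons were sequenced by the authors. Per the submitters' processing notes, bcl2fastq 2.15.0.4, STAR 2.4.1, featureCounts 1.4.4 and the mouse build GRCm38.p3 were used. The authors deposited log2(x + 1) values for 45513 genes in 325 neurons, where x was proportional to reads per gene length and summed to different totals between neurons. Cells that the study later set aside for glial transcripts were still in the table. The other 74 neurons and 13 bath controls of the labels were not analysed here.

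Values were taken off the log scale and rescaled to TPM. Whole reads were recovered from the steps between values. With GENCODE M21 gene lengths 65.3% of values above 0 were whole within a relative tolerance of 1e-08, and 100% were whole once lengths of 8712 genes had been found from the values. For each of these genes the smallest length that made all its values whole was taken. The 100% thus follows from the search and is no check of the reads. Reads of such a gene may be too low by a common factor. Reads served for depth, for CPM and for thinning to 400000 reads (random seed 1). Symbols were matched for 44585 IDs and for all 554 list names, and coordinates are GRCm38.

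The labels name no mouse or culture for a neuron, so no test was run. Genes with a mean of at least 10 TPM in either group were compared by the log2 ratio of mean TPM + 1 and by direction in each of plates 2 to 6. The calling was tested on simulated data, in which the planted changes were larger than the 4-fold limit. No simulated gene was split into neurons with and without it, so the simulation cannot show how such genes are called. Named genes were the 10 called genes with the largest ratio in each direction, up to 3 called members per list and direction, up to 2 uncalled members per list with the highest mean, the rule genes and all neurotrophin and GDNF family receptors listed. A few genes that this rule names are not reported here. Other names were chosen after their values were seen. Groups, lists and members were chosen with earlier results of these data known. Doublets were not called, since neurons were picked singly. Alternatives covered pseudocount, filters, thresholds, scaling, depth, averaging and plates. Python 3.11.15, numpy 2.4.6, pandas 2.3.3, scipy 1.17.1 and matplotlib 3.10.9 were used.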

Additional observations from a re-analysis of the deposited data

How the results depend on the processing

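Of 88 genes higher in Gfra3 and 150 higher in Piezo2 neurons, 26 and 37 were called with 10 TPM added to the means, 25 and 44 with a mean of at least 50 TPM, and 42 and 58 at a log2 ratio of at least 3. A log2 ratio of at least 1 gave 309 and 384. These follow from the construction of the alternatives. Without rescaling to TPM, 154 and 150 were called and the median log2 ratio of all genes moved to 0.19. With medians over neurons in place of means, 154 and 223 were called, and the cause was not tested. Leaving out each plate in turn gave 82 to 108 and 148 to 183 calls, of which 78 to 86 and 136 to 146 were shared with the 88 and 150. Without the neurons highest in glial or in immune transcripts, alternatives chosen after seeing the data, 94 and 146 or 88 and 151 were called. No log2 ratio of a named called gene changed to the opposite sign under any of these alternatives, but that of Ecel1 was 0 with medians over neurons. Of all recomputed log2 ratios, 2107 moved by less than the spread between plates and 161 by more. The larger moves were concentrated in a few alternatives. Of 108 genes, 42 moved by more with medians over neurons, 38 with 10 TPM added and 35 with the mean of log2(TPM + 1). With 0.1 TPM added 17 did, and without rescaling 12 did. Each other alternative moved at most 8. Of the shares of neurons past 10 TPM, recomputed at 1 or 50 TPM or from thinned reads, 419 stayed within their counting interval and 229 did not.

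Since LS is 1 sample, the spread between mice is unknown, and the plate ranges show only how the ratios varied among libraries. On CPM of recovered reads, Npffr2, Gng13 and Nrtn were no longer called, with log2 ratios of 3.26, -3.24 and -2.92. All of them were still called with reads thinned to 400000. P2ry2 and Ecel1 were the named genes no longer called after thinning, with log2 ratios of -1.90 and 3.44.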
